A study of Homo sapiens with 26 samples.

Results

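Germ cell and meiosis genes were examined as a set of 40 genes in RNA-seq tables from esophageal squamous cell carcinoma (ESCC) cell lines, in which BRDT, itself a germ cell gene, had been depleted or overexpressed. The 40 were chosen by symbol for their known roles in meiosis or sperm formation, out of 26485 genes in each of 5 tables, and all 40 symbols were present. The question was whether loss or gain of BRDT changed other genes of the testis, and depletion of TP63 was examined beside it. The 26 libraries came from 3 lines, KYSE180, TE6 and KYSE150, and formed 11 groups. In KYSE180, 3 libraries of a control siRNA (siCont) stood against 3 of an siRNA against BRDT (siBRDT), and in a second experiment 2 siCont against 2 of an siRNA against TP63 (siTP63). In TE6, 2 siCont, 2 siBRDT and 2 siTP63 libraries made up 1 table, so both TE6 comparisons used the same controls. In KYSE150, 2 siCont stood against 2 siTP63, and in a further experiment 3 control libraries against 3 with BRDT overexpression (BRDT-OE). All siRNA cultures were grown for 48 h. According to the methods, overexpression was from an introduced plasmid with the empty vector as control. All groups were therefore treated cultures of established tumour lines, and no germ cells or normal tissue were included. Nothing in the sources used here says that replicates came from separate cultures, so p-values measure only the spread between these libraries.

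Meiosis is the pair of divisions by which germ cells make haploid gametes. Before the first division, chromosomes are held by meiotic forms of cohesin, a protein axis is built along them, DNA breaks are made and repaired against the partner chromosome, and the synaptonemal complex joins the partners. Male germ cells also silence transposons with piRNAs, stay joined by intercellular bridges, and later pack their DNA with transition proteins and protamines while the sperm tail is assembled. BRDT is the testis member of the BET bromodomain family, which binds acetylated histones, and in mice it is needed for sperm formation. Most of these genes are silent in somatic tissue, where DNA methylation of their promoters and the repressor E2F6 are known to hold many of them off, and some are expressed again in tumours. TP63 is a transcription factor of squamous epithelium.

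To show what the start regions of the members look like, the 250 bases before the RefSeq start (GRCh38.p14) are given for 5 members. They are a selection made after the values were seen. REC8, SMC1B and SYCP2 are the called and matched members whose promoter held a box bound by the repressor E2F6, and CCNA1 and HSPA2 stand beside them as called members without it. Other called members, ODF2 and TDRD5 among them, are not shown. RefSeq promoters were matched for 31 of the 40 members. Capitals mark the E2F6 box GCGGGAA, which on these 3 gene strands reads as its reverse complement. REC8, SMC1B and SYCP2 each held 1 box, and CCNA1 and HSPA2 held none.
REC8, chr14:24171830-24172079, plus strand: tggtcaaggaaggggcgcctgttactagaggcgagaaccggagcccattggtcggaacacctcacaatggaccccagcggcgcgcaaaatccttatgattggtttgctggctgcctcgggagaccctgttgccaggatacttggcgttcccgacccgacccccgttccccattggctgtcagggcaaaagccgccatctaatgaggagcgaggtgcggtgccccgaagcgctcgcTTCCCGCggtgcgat
SMC1B, chr22:45413600-45413849, minus strand: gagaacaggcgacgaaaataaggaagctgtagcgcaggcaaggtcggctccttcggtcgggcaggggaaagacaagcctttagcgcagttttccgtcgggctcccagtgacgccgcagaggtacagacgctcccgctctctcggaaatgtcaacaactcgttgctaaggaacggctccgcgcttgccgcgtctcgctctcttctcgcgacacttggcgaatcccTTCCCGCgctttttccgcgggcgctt
SYCP2, chr20:59933638-59933887, minus strand: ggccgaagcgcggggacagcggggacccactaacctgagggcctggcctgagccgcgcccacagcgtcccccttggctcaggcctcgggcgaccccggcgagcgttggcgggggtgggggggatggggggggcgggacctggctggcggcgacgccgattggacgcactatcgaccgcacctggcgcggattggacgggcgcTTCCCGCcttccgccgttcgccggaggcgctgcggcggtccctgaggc
CCNA1, chr13:36431705-36431954, plus strand: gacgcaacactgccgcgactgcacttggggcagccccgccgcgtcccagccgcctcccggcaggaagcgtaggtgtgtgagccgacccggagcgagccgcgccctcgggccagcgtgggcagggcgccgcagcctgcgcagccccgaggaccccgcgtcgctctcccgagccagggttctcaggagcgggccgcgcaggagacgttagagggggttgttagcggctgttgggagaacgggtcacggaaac
HSPA2, chr14:64540491-64540740, plus strand: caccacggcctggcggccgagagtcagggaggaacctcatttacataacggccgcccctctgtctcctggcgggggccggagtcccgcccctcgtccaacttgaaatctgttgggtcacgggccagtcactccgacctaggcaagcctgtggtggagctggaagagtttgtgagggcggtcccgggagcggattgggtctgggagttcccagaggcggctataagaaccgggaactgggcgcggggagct
The box began 15 bases before the start in REC8, 26 in SMC1B and 48 in SYCP2. Searched on both strands, it was present in 5 of 31 member promoters (16.1%), the other two being SPO11 and PRDM9, against 7.02% of 16199 promoters of genes in the tables. The E-box CACGTG was present in 3 member promoters (9.68% against 7.61%), namely TDRD1, TDRD12 and ODF2. The cAMP response element TGACGTCA was present in 2 (6.45% against 2.21%), MOV10L1 and SPAG6, and an interferon-stimulated response element in 1, TDRD6 (3.23% against 2.77%). These matches describe letters within the window and not sites in use. The ratio of observed to expected CpG had a median of 0.744 over the 31 members and 0.718 over all promoters. It was 0.827 in the 11 matched members that reached the level described next and 0.740 in the 20 that did not.

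Library totals ranged from 7582089 to 19372441 reads. Values are counts divided by a size factor set within each table, so levels are compared within a table. 2 libraries stood apart by the number of genes with reads. TE6 siBRDT replicate 1 had reads on 20995 genes, against 16458 to 17569 in the other TE6 libraries, and KYSE180 siBRDT replicate 1 on 18972, against 17187 to 17778. The same 2 libraries had reads on 141 and 72 of 379 genes of the olfactory receptor family, some of which are also known from testis and sperm, against 9 to 19 in the other TE6 and 15 to 23 in the other KYSE180 libraries of that table. The libraries of the other tables had reads on 6 to 32 of these genes. Where leaving out either library changed a call or a count, both values are given. 8 squamous marker genes had summed values of 13982 to 143391 in every library, while the 7 defining germ cell markers among the members (DDX4, DAZL, SYCP1, PIWIL1, PRM1, PRM2 and TNP1) summed to 0 to 5 reads per library. Marker lists of other cell types summed to 69.5 to 1639 (leukocytes), 10.3 to 153 (endothelium) and 56.4 to 1081 (fibroblasts), and their part in the results was not tested. In bulk RNA, fewer cells expressing a gene and less RNA per cell cannot be told apart.

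The targeted genes followed their labels. In KYSE180, BRDT was at 1017, 1043 and 1136 in siCont and at 132, 147 and 198 in siBRDT, a log2 fold change of -2.75 ± 0.12 (SE). In TE6 it was at 241 and 242 in siCont, 55.03 and 46.6 in siBRDT and 233 and 220 in siTP63. In KYSE150 it was at 8.13, 16.0 and 6.58 in control libraries and at 15872, 15927 and 17542 in BRDT-OE, far above its level in either line that expresses it. siTP63 lowered TP63 itself by 1.70 in KYSE180 and 4.45 in TE6 on the log2 scale. siBRDT also lowered TP63, by 0.58 in KYSE180 and 1.15 in TE6 (-0.51 and -1.23 without siBRDT replicate 1), so the siBRDT libraries held less of both transcripts. BRDT itself was not called under siTP63 in KYSE180 (-0.05) or TE6 (-0.09). In KYSE150 TP63 was at 695 and 729 in siCont and 170 and 114 in siTP63, but limma gave it an adjusted p of 0.0818.

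Most of the 40 genes were close to silent in all 3 lines. A mean value of 10 or more, the level set for testing, was reached by 11 of 40 members in the KYSE180 siBRDT table, 12 in the KYSE180 siTP63 table, 9 in TE6, 4 in the KYSE150 BRDT-OE table and 3 in the KYSE150 siTP63 table. 14 members reached it in at least 1 table and 26 in none. The outer dense fibre gene ODF2, the testis-enriched HSP70 gene HSPA2 and the meiotic cohesin gene REC8 reached it in all 5. By role, all 3 meiotic cohesin genes (REC8, STAG3 and SMC1B) reached it somewhere, as did 2 of 5 genes of the synaptonemal complex and chromosome axis (SYCP2 and HORMAD1), 2 of 5 recombination genes (DMC1 and MEIOB), 2 of 11 piRNA and germ granule genes (TDRD5 and MOV10L1) and the intercellular bridge gene TEX14. Of 7 genes for sperm chromatin and structure only ODF2 reached it, and of 6 germ cell paralogs of somatic genes CCNA1, HSPA1L and HSPA2 did. Neither of the RNA-binding translation regulators, DAZL and BOLL, reached it.

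**Figure D1:**
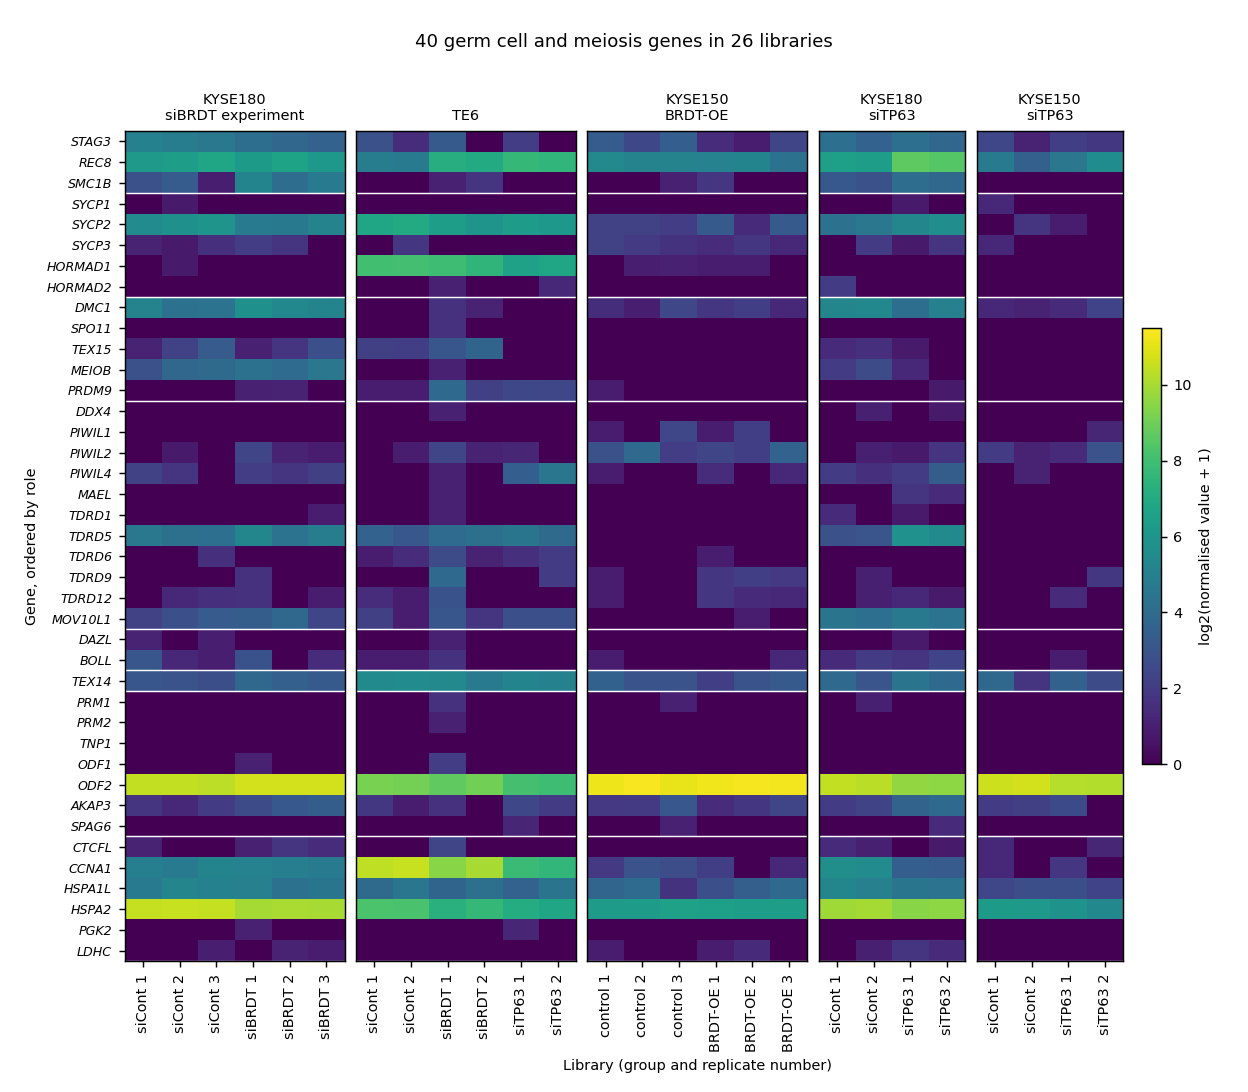
log2(normalised value + 1) of each of the 40 genes (rows, grouped by role, white lines between roles) in each of the 26 libraries (columns, 1 block per table). ODF2 and HSPA2 are bright in every block, CCNA1 and HORMAD1 are bright in TE6, and the row of TNP1 is at 0 in all 26 libraries.

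The order of the members' levels differed between the lines. Per kilobase of the longest GENCODE transcript, ODF2, which also serves centriole appendages in somatic cells, had a mean value of 351 in KYSE180 siCont of the siBRDT experiment, above BRDT (288), HSPA2 (269), REC8 (32.9), CCNA1 (17.5) and SYCP2 (9.67). TE6 siCont had another order, with CCNA1, the cyclin A of male meiosis, highest at 798 ± 50.5 (SD, n = 2) per kilobase. It was followed there by ODF2 (147), the axis gene HORMAD1 (139), BRDT (65.3), HSPA2 (55.4), SYCP2 (21.9) and REC8 (9.76). KYSE150 control libraries had ODF2 at 623 per kilobase and then HSPA2 at 15.9 and REC8 at 13.5, with BRDT at 2.77. HORMAD1 was thus a TE6 transcript, at 260 and 270 in siCont, and had at most 1 read in every library of the other lines.

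The remaining 26 members were described by reads alone. TNP1, a transition protein gene, had 0 reads in all 26 libraries. 18 of the 26 never had more than 5 reads in any library. These included SYCP1, the transverse filament of the synaptonemal complex (at most 1 read, in 3 libraries), SPO11, which makes meiotic breaks (2 reads, in 1 library), the germ cell RNA helicase DDX4 (1 read, in 3 libraries), DAZL (1 read, in 4 libraries), the protamines PRM1 and PRM2 (2 reads in 3 libraries and 1 read in 1), PIWIL1 (4 reads, in 5 libraries), the CTCF paralog CTCFL (4 reads, in 10 libraries) and the sperm glycolysis genes PGK2 and LDHC (2 reads in 2 libraries and 3 reads in 9). The other 8 were AKAP3 (18 reads at most), PIWIL2 and PIWIL4 (15 each), PRDM9 and TDRD9 (13 each), TEX15 (10) and BOLL and TDRD12 (6 each). A count of 0 allows up to 3 reads by counting error, and the reads carry no molecular identifiers. Of the members below a mean of 10, the highest count per table was 13 to 18 reads. Between 4 (TE6) and 21 (KYSE150 siTP63 table) of the 40 had 0 reads in every library of a table.

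The number of members with any read was highest in the same 2 libraries. TE6 siBRDT replicate 1 had at least 1 read on 33 members, while the other 5 TE6 libraries, siBRDT replicate 2 included, had 16 to 19. Without it, members with any read in TE6 fell from 36 to 26. KYSE180 siBRDT replicate 1 had reads on 25 members against 20 to 22 in the other 5 libraries, and without it the table's 31 detected members became 28. BRDT-OE libraries detected 16 to 20 members and their controls 13 to 19. The overexpressing libraries therefore overlapped their controls in the number of germ cell genes with reads.

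The summed level of the members below a mean of 10 separated some treatments from their controls. As normalised values, these members summed to 55.4, 45.2 and 39.2 in KYSE180 siBRDT (52, 39 and 45 reads) and to 29.4, 26.5 and 35.3 in siCont (24, 35 and 36 reads). In the other KYSE180 experiment they summed to 29.1 and 40.5 in siTP63 (38 and 51 reads) and 18.9 and 26.7 in siCont (12 and 26 reads). In both experiments every siBRDT or siTP63 library was above every control, with and without siBRDT replicate 1. The separation depended on AKAP3, and without it the groups overlapped in both experiments. AKAP3 gave 5, 7 and 11 of the reads in siBRDT and 2, 2 and 3 in siCont. In the other experiment it gave 15 and 18 in siTP63 and 2 and 4 in siCont. In TE6 the sums were 34.5 and 42.9 in siTP63 (52 and 29 reads, of which PIWIL4 gave 15 and 15), 96.0 and 23.9 in siBRDT (89 and 20 reads) and 20.2 and 14.6 in siCont (23 and 17 reads). The other TE6 siBRDT library thus lay close to the higher control. In KYSE150 the groups overlapped, at 40.4, 33.0 and 47.8 in BRDT-OE against 47.0, 43.4 and 51.5, and at 34.1 and 27.9 in siTP63 against 35.6 and 18.8. These sums were not tested, and the same sums over all low genes were not taken, so no background stands beside them. Over all genes, KYSE180 siTP63 libraries had reads on 18325 and 18255 genes, and their siCont libraries on 17224 and 17813.

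**Figure D2:**
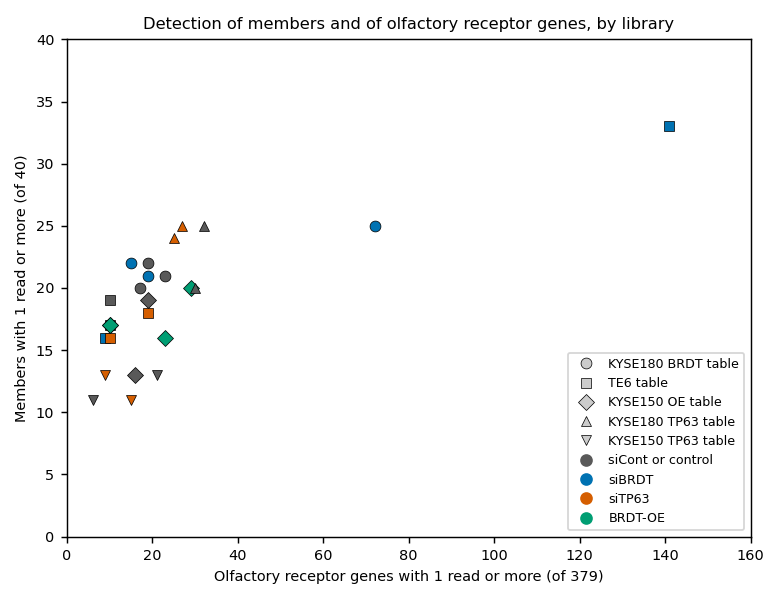
Each point is a library, with olfactory receptor genes that had at least 1 read on the x axis (of 379) and members that had at least 1 read on the y axis (of 40), by table (shape) and treatment (colour). TE6 siBRDT replicate 1 lies alone at 141 and 33, and KYSE180 siBRDT replicate 1 at 72 and 25.

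In KYSE180, siBRDT lowered SYCP2, STAG3 and HSPA2 and raised the recombinase gene DMC1. The cohesin gene SMC1B was also called up, but with a mean of 5.39 in siCont and 25.5 in siBRDT it reached the level for testing through its siBRDT libraries only, so its place among the called genes follows in part from the filter. A gene was called when limma gave an adjusted p under 0.05 and its change reached 0.5 on the log2 scale. By this rule 5 of the 11 testable members changed, 3 down and 2 up with SMC1B included, beside 30.3% of 13589 genes tested (15.8% down and 14.5% up). The share of the members tested was 45.5%. Their median log2 fold change was -0.06 against -0.01 over all genes, so the members did not move one way as a list.

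SYCP2, an axial element protein of the synaptonemal complex (chr20:59863564-59933655, hg38), was at 45.3, 53.7 and 61.8 in siCont and at 25.5, 24.3 and 34.8 in siBRDT. All siBRDT libraries were lower than every control, and the log2 fold change was -0.91 ± 0.20 (SE, adjusted p = 0.00144). STAG3, a meiotic cohesin subunit (chr7:100177563-100214387), was at 31.9, 28.0 and 23.5 against 17.0, 12.7 and 11.3, again without overlap (-0.98 ± 0.26, adjusted p = 0.0047). Its exons overlap those of CASTOR3P on the other strand and of an unnamed protein-coding gene on the same strand. Neither has values here, and whether their reads were counted to STAG3 was not tested. HSPA2, an HSP70 of spermatocytes that is also found in somatic tissue (chr14:64535905-64546173), was at 1438, 1494 and 1419 against 991, 1059 and 1007. The groups were well apart but the change was small, at -0.51 ± 0.06 (adjusted p = 7.11e-06), and it slipped under the fold limit without siBRDT replicate 1 or siCont replicate 2 (-0.49 in each case), with edgeR (-0.49) and with upper-quartile rescaling (-0.45).

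SMC1B, the meiotic form of the SMC1 cohesin subunit (chr22:45344063-45413619), was at 6.13, 9.07 and 0.981 in siCont and at 35.1, 16.2 and 25.2 in siBRDT. Every siBRDT library was above every control, and the log2 fold change was 2.28 ± 0.51 (adjusted p = 0.00139). DMC1, the strand exchange recombinase of meiosis (chr22:38518948-38570204), was at 34.3, 18.9 and 19.6 against 54.3, 40.5 and 35.7, with the lowest siBRDT library just above the highest control (0.85 ± 0.25, adjusted p = 0.00983). Without siBRDT replicate 1, the library with the extra genes, SMC1B was at 2.03 and DMC1 at 0.68 (adjusted p = 0.0436), SYCP2 at -0.85 and STAG3 at -1.14, and these 4 stayed called. Unlike STAG3 and SMC1B, REC8, the kleisin subunit of the same complexes, was at 73.5, 86.9 and 108 in siCont and at 75.6, 102 and 69.6 in siBRDT, with overlapping groups (-0.12, adjusted p = 0.576).

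The other 5 testable members in KYSE180 were not called. ODF2 was at 1386, 1391 and 1315 in siCont and 1701, 1687 and 1680 in siBRDT, groups that did not overlap, and at 0.31 (adjusted p = 4.51e-04) it lay under the fold limit. MEIOB, which binds single-stranded DNA during meiotic repair, was at 6.13, 12.9 and 14.7 against 19.2, 15.1 and 22.6 (0.77, adjusted p = 0.0651), and it was called without siCont replicate 3 (0.99) and with upper-quartile rescaling (0.82). Its exons overlap those of FAHD1 on the other strand, and FAHD1, looked up after the values were seen, was at 0.48 (0.47 without siBRDT replicate 1). The values of TDRD5, CCNA1 and HSPA1L overlapped between groups, with log2 fold changes of 0.45, -0.06 and -0.45. Without siBRDT replicate 1 HSPA1L was called at -0.66.

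In TE6, siBRDT raised REC8 and lowered CCNA1, HSPA2 and SYCP2. 4 of the 9 testable members were called (44.4%), beside 33.7% of 13333 genes (18.1% down and 15.6% up). The median was -0.31 over the 9 members and -0.04 over all genes. Rescaling by the upper quartile moved the median of all genes to 0.24 and the genes called from 2419 down and 2074 up to 588 down and 2716 up. On that scale REC8 stayed called and the 3 falls did not. The quartile was taken over the nonzero values of each library, so it depends on how many genes have reads. TE6 siBRDT replicate 1 had reads on 20995 genes, against 16458 to 17569 in the other TE6 libraries. The part of this difference in the shift was not tested.

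REC8 (chr14:24171853-24180257) was at 27.3 and 25.8 in siCont and at 141 and 130 in siBRDT. Both siBRDT libraries lay far above both controls, and the log2 fold change was 2.31 ± 0.19 (adjusted p = 3.26e-06), or 2.25 without siBRDT replicate 1. REC8 overlaps exons of IPO4 on the opposite strand, and the kit did not mark strand. IPO4, an importin looked up after the values were seen, was at 2723 and 2610 in siCont and 2629 and 3524 in siBRDT, overlapping groups (0.19, adjusted p = 0.232, or 0.40 without siBRDT replicate 1). IRF9, an interferon signalling factor also looked up afterwards, lies on the same strand and ends 3809 bases upstream. It was at 747 and 597 in siCont and 2075 and 2436 in siBRDT (1.75 ± 0.12, adjusted p = 1.16e-06, or 1.87 without siBRDT replicate 1), and whether the neighbours share a cause was not tested.

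CCNA1 (chr13:36431520-36442870) was at 1340 and 1465 in siCont and at 700 and 1034 in siBRDT. Both siBRDT libraries were lower but differed from each other by more than the nearer one did from the lower control. The log2 fold change was -0.72 ± 0.16 (adjusted p = 0.00341), and without siBRDT replicate 1 it was -0.44 and under the fold limit. HSPA2 was at 302 and 296 against 159 and 199 (-0.75 ± 0.17, adjusted p = 0.00382), and at -0.58 without that library. SYCP2 was at 113 and 130 against 83.1 and 60.9 (-0.76 ± 0.21, adjusted p = 0.0115), and at -0.98 without it. Neither pair of groups overlapped. On the upper-quartile scale the 3 genes were at -0.44, -0.47 and -0.48, with adjusted p of 0.131, 0.177 and 0.299. CCNA1 and SYCP2 also lost their calls without siCont replicate 2 (adjusted p = 0.0637 and 0.129), and SYCP2 with DESeq2 (0.053).

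The 5 members not called in TE6 were HORMAD1, TEX14, ODF2, TDRD5 and HSPA1L. HORMAD1 (chr1:150698060-150720895) was at 260 and 270 in siCont and 246 and 184 in siBRDT (-0.31, adjusted p = 0.153), and without siBRDT replicate 1 it was called at -0.52. The intercellular bridge gene TEX14 was at 43.1 and 46.5 against 42.1 and 26.3 (-0.42), ODF2 at 590 and 554 against 418 and 527 (-0.28) and the piRNA pathway gene TDRD5 at 11.4 and 7.75 against 15.1 and 17.9 (0.74). HSPA1L was at -0.28, with overlapping groups.

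**Figure D3:**
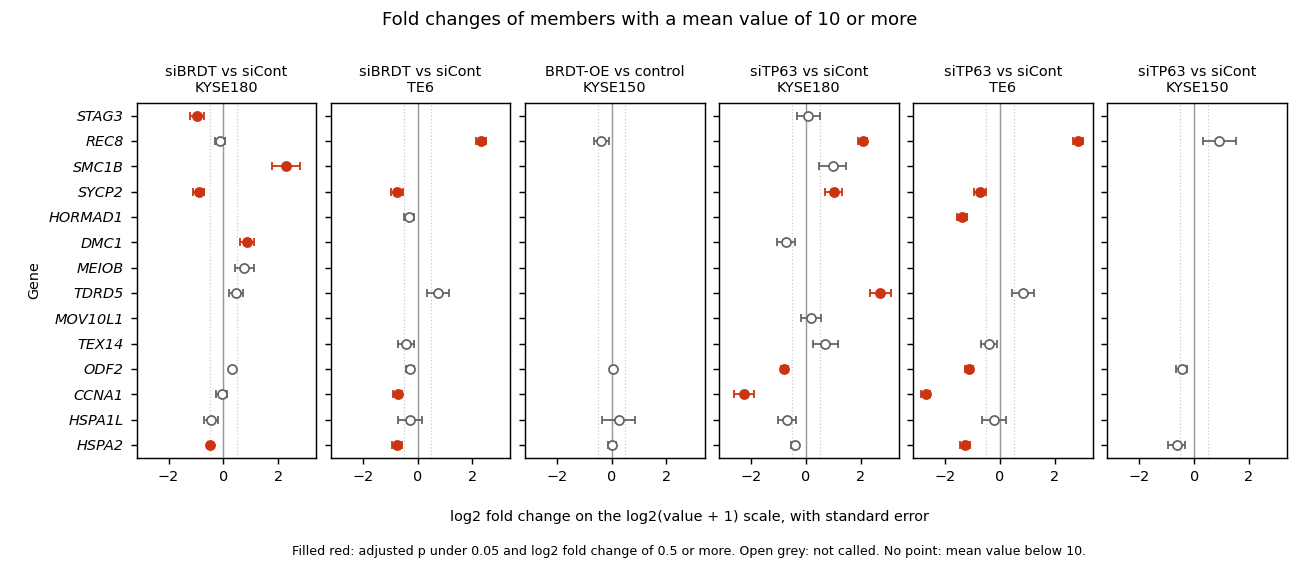
log2 fold change on the log2(value + 1) scale (x axis, bars show the standard error) for the members tested in each of the 6 comparisons. Filled points were called, open points were not, and a gene with no point had a mean below 10. REC8 lies at 2.31 in TE6 siBRDT, 2.07 in KYSE180 siTP63 and 2.84 in TE6 siTP63, and at -0.12 in KYSE180 siBRDT.

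The response to siBRDT was compared directly between KYSE180 and TE6 for the 7 members tested in both, by contrasts of the fold changes at a limma adjusted p under 0.05 with no fold limit. REC8 and 2 others, 3 of the 7, differed, beside 41.9% of 12612 genes (19.4% lower and 22.5% higher in KYSE180). REC8 differed by -2.43 ± 0.27 (KYSE180 minus TE6, adjusted p = 2.89e-06), with a rise called in TE6 and no call in KYSE180. ODF2 differed by 0.59 ± 0.14 (adjusted p = 0.00251) and CCNA1 by 0.65 ± 0.24 (adjusted p = 0.038). The CCNA1 difference was not called without TE6 siBRDT replicate 1 (0.37, adjusted p = 0.227) or without KYSE180 siBRDT replicate 1 (0.57, adjusted p = 0.0753), nor without either TE6 siCont library, KYSE180 siCont replicate 1 or 2 or KYSE180 siBRDT replicate 2 (adjusted p from 0.056 to 0.146). HSPA2 and SYCP2, which were called down in both lines, differed by 0.24 ± 0.16 and -0.15 ± 0.30 and were not called different, nor were TDRD5 (-0.29) and HSPA1L (-0.17). Upper-quartile rescaling turned the genes that differed from 2445 lower and 2835 higher in KYSE180 to 2202 and 709, and then 1 member differed, REC8. ODF2 was at 0.37 (adjusted p = 0.149) on that scale.

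Overexpression of BRDT in KYSE150 moved no testable member past the threshold. 0 of 4 were called by limma, by edgeR or by DESeq2, and 0 had an unadjusted p under 0.05, while limma called 26.5% of 12765 genes in the same libraries (16% down and 10.5% up). Upper-quartile rescaling changed those calls from 2043 down and 1343 up to 2436 and 966. HSPA2 was at 80.4, 82.1 and 95.4 in control and 89.4, 83.7 and 87.2 in BRDT-OE (0.02 ± 0.14). ODF2 was at 2352, 2669 and 2246 against 2439, 2594 and 2525 (0.06 ± 0.08). REC8 was at 41.6, 34.9 and 34.0 against 33.5, 35.5 and 18.3 (-0.38 ± 0.27, adjusted p = 0.261). All groups overlapped. HSPA1L, an HSP70 gene of spermatids whose sequence is close to that of HSPA1A and HSPA1B, sat at the level limit with 2.19 to 15.1 across the 6 libraries (0.25 ± 0.60). The other 36 members stayed below a mean of 10 over these libraries, in which BRDT ranged from 6.58 to 17542.

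siTP63 raised REC8 and lowered CCNA1 and ODF2 in both KYSE180 and TE6. In KYSE180 5 of 12 testable members were called (41.7%), beside 49.3% of 13924 genes (25.7% down and 23.6% up). Upper-quartile rescaling moved the median of all genes to 0.22 and the calls from 3577 down and 3292 up to 2554 and 4660. In TE6 6 of 9 were called (66.7%), 5 down and 1 up, beside 38.9% (20.6% down and 18.3% up). The median there was -0.72 over the 9 members and -0.01 over all genes. In KYSE180 the 2 medians were 0.14 and 0.0006. Upper-quartile rescaling changed the genes called in TE6 from 2742 down and 2442 up to 1604 and 1976. The TE6 values share their siCont libraries with the siBRDT comparison and are given side by side with it, not as a repeat of it.

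REC8 was at 89.7 and 87.3 in KYSE180 siCont and at 403 and 348 in siTP63, well above both controls (2.07 ± 0.18, adjusted p = 5.05e-10). In TE6 it was at 202 and 191 in siTP63 against 27.3 and 25.8 (2.84 ± 0.19, adjusted p = 2.18e-07). IPO4, on the other strand, went the opposite way, from 6016 and 4167 to 1832 and 1691 in KYSE180 (-1.51) and by -0.49 in TE6. IRF9 went the same way as REC8, from 434 and 751 to 4232 and 4210 in KYSE180 (2.88) and to 2637 and 2623 in TE6 (1.98). In BRDT-OE, where REC8 was not called, IRF9 was at -1.50 and IPO4 at 0.86. In KYSE180 siBRDT, with REC8 at -0.12, IRF9 was at 0.25 and IPO4 at 0.08, and none of them was called. In KYSE150 siTP63, with REC8 at 0.92, IRF9 was at 1.02 and IPO4 at -0.49, again without a call.

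The falls of CCNA1 and ODF2 were found in both lines. CCNA1 was at 50.3 and 46.2 against 9.97 and 8.74 in KYSE180 (-2.25 ± 0.36, adjusted p = 8.01e-06) and at 1340 and 1465 against 230 and 197 in TE6 (-2.71 ± 0.16, adjusted p = 1.36e-07). In KYSE180 CCNA1 reached the level for testing through its siCont libraries only (means of 48.3 in siCont and 9.35 in siTP63). Its place among the called genes there follows in part from the filter. TE6 was the line in which CCNA1 was most abundant. ODF2 was at 1390 and 1263 against 791 and 751 in KYSE180 (-0.78 ± 0.14, adjusted p = 3.72e-05) and at 590 and 554 against 276 and 243 in TE6 (-1.14 ± 0.14, adjusted p = 3.58e-05). The siTP63 libraries were below every control for both genes in both lines.

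SYCP2 went opposite ways. In KYSE180 it was at 18.9 and 22.6 in siCont and 37.6 and 48.5 in siTP63 (1.01 ± 0.32, adjusted p = 0.00859), and in TE6 at 113 and 130 against 78.3 and 68.1 (-0.72 ± 0.21, adjusted p = 0.0132). Neither pair overlapped, but each call was lost with DESeq2 (adjusted p = 0.0561 and 0.0527) and without siTP63 replicate 2 (0.191 and 0.101), and the TE6 call also with upper-quartile rescaling (0.157) and without siCont replicate 2 (0.134). TDRD5, a Tudor protein of the piRNA pathway (chr1:179591613-179691272), was at 6.29 and 7.19 against 55.2 and 44.5 in KYSE180 (2.71 ± 0.38, adjusted p = 1.41e-06). It reached the level for testing there through its siTP63 libraries, and in TE6 it was at 11.4 and 7.75 against 21.2 and 14.8 (0.85, adjusted p = 0.106).

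HSPA2 and HORMAD1 were called down in TE6 alone. HSPA2 was at 302 and 296 in siCont and 138 and 108 in siTP63 (-1.28 ± 0.17, adjusted p = 6.76e-05), and in KYSE180 at 942 and 996 against 703 and 755 (-0.41, adjusted p = 0.0146), under the fold limit. HORMAD1, which could be tested in TE6 only, was at 260 and 270 against 94.2 and 107 (-1.39 ± 0.17, adjusted p = 3.42e-05), a clear separation. Of the members not called in KYSE180, DMC1 (-0.74), HSPA1L (-0.70), SMC1B (0.98) and TEX14 (0.71) had adjusted p of 0.06 to 0.189. Leaving out 1 library brought each of these 4 past the threshold, DMC1 without siCont replicate 1 or siTP63 replicate 2, HSPA1L without siCont replicate 2, and SMC1B and TEX14 without siCont replicate 1. SMC1B reached the level for testing through its siTP63 libraries (7.01 in siCont and 14.8 in siTP63), so its place here follows in part from the filter. MOV10L1 (0.19) and STAG3 (0.09) had groups that overlapped and were not called. In TE6, TEX14 (-0.39) and HSPA1L (-0.22) were not called.

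**Figure D4:**
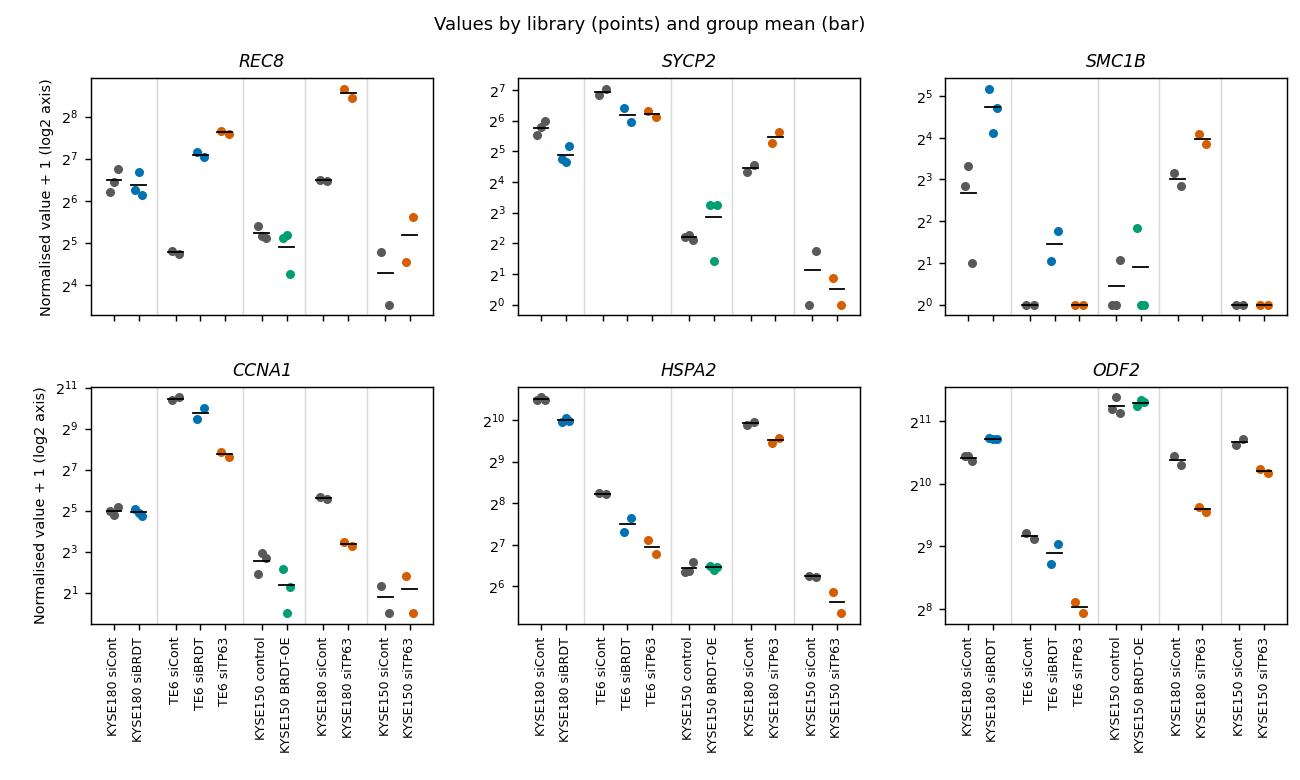
Normalised value + 1 (log2 y axis) of 6 members in every library (points) with the group mean (bar), by group. REC8 lies at 25.8 to 27.3 in TE6 siCont and at 130 to 202 in the siBRDT and siTP63 libraries of that line, and CCNA1 falls from 1340 and 1465 to 230 and 197 in TE6 siTP63.

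The siTP63 changes of 8 members were compared between KYSE180 and TE6, and 4 differed, beside 55% of 12780 genes (28.8% lower and 26.2% higher in KYSE180). SYCP2 differed by 1.73 ± 0.35 (KYSE180 minus TE6, adjusted p = 4.61e-04), TDRD5 by 1.86 ± 0.57 (adjusted p = 0.0103), HSPA2 by 0.87 ± 0.22 (adjusted p = 0.00238) and REC8 by -0.77 ± 0.25 (adjusted p = 0.0142). CCNA1 (0.46 ± 0.27), ODF2 (0.36 ± 0.19), TEX14 (1.10 ± 0.53) and HSPA1L (-0.48 ± 0.56) were not called different. TDRD5 had reached the level for testing in KYSE180 through its siTP63 libraries (6.74 in siCont and 49.9 in siTP63) and had a control mean of 9.59 in TE6, so its place among the 4 follows in part from the filter. The REC8 difference was lost without KYSE180 siTP63 replicate 2 (adjusted p = 0.0781) or TE6 siTP63 replicate 1 (0.0546) and with upper-quartile rescaling (0.156), and that of TDRD5 without KYSE180 siTP63 replicate 1 (0.0529) or TE6 siCont replicate 1 (0.0511).

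In KYSE150, where BRDT was at 0 to 60.9, siTP63 called 0 of 3 testable members and 0% of 12335 genes by limma (0% down and 0% up), although 2194 genes had an unadjusted p under 0.05. edgeR called 0 genes and DESeq2 462, none of them a member. ODF2 was at 1571 and 1675 against 1207 and 1150 (-0.46, unadjusted p = 0.0479, adjusted p = 0.276) and HSPA2 at 75.7 and 74.2 against 57.3 and 39.9 (-0.64, adjusted p = 0.356). Both were lower in each siTP63 library than in each control, but neither was called. The share of all genes that separated likewise in these libraries was not counted. REC8 was at 26.7 and 10.6 against 22.4 and 47.9, with overlapping groups (0.92 ± 0.60, adjusted p = 0.474). Deviations of same-numbered libraries were correlated at -0.7025 in this table. With a crossed replicate pairing, added after the data were seen, limma called HSPA2 down and REC8 up.

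Depletion of BRDT and of TP63 was also compared within a line. In TE6, 5 of 9 members differed between siBRDT and siTP63 libraries, beside 39.2% of genes (19.3% lower and 19.9% higher under siBRDT). CCNA1 (1.99 ± 0.16), HORMAD1 (1.08 ± 0.17), ODF2 (0.86 ± 0.14) and HSPA2 (0.54 ± 0.17) were higher under siBRDT and REC8 (-0.53 ± 0.19, adjusted p = 0.0373) was lower. Upper-quartile rescaling changed the genes that differed from 2572 lower and 2656 higher under siBRDT to 566 and 1824. SYCP2 (-0.04 ± 0.21) was not called different there. The REC8 difference was lost with that rescaling (adjusted p = 0.464) and without any 1 library other than siBRDT replicate 1 (0.0549 to 0.184), and that of HSPA2 without siBRDT replicate 2, siTP63 replicate 2 or either siCont (0.062 to 0.248). In KYSE180, the fold changes of the separate experiments were compared, a contrast added after the values were seen, and 7 of 10 members differed, beside 65.1% of genes (31.3% lower and 33.7% higher under siBRDT), a share close to that of the members. CCNA1 (2.19), DMC1 (1.58) and ODF2 (1.09) were higher under siBRDT than under siTP63. REC8 (-2.19), TDRD5 (-2.26), SYCP2 (-1.92) and STAG3 (-1.07, adjusted p = 0.0484) were lower, and SMC1B (1.30 ± 0.78), HSPA2 (-0.10) and HSPA1L (0.25) were not called different. TDRD5 and SMC1B had reached the level for testing in the siTP63 experiment through their siTP63 libraries. For SMC1B the same held for siBRDT in the other experiment. CCNA1 had reached the level for testing in the siTP63 experiment through its siCont libraries. The places of TDRD5 and CCNA1 among the 7 thus follow in part from the filter. The STAG3 difference was lost without any of 6 single libraries, siCont replicate 1 or 2 or siBRDT replicate 2 or 3 of the siBRDT experiment and siCont replicate 2 or siTP63 replicate 1 of the other (0.0755 to 0.175).

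Among the members with a mean below 10, several had values that separated the groups. The share of all low genes that separated likewise was not counted. Reads are given for members that also had an adjusted p under 0.05 in limma with no filter in at least 1 comparison. TEX14 and PIWIL2 in KYSE180 siBRDT, PIWIL2 in TE6 siBRDT and TDRD12 in BRDT-OE separated without such a p-value. So did MEIOB and LDHC in KYSE180 siTP63, TDRD6, MOV10L1 and AKAP3 in TE6 siTP63 and DMC1 in KYSE150 siTP63. In TE6, PIWIL4, a Piwi protein of fetal germ cells, had 15 and 15 reads in siTP63 and 0 and 0 in siCont, at least 6.16-fold higher when the controls are set at the floor of 3 reads per library. Its exons overlap those of FUT4 on the same strand. AKAP3, of the fibrous sheath of the sperm tail, had 15 and 18 reads in KYSE180 siTP63 and 2 and 4 in siCont, and 5, 7 and 11 reads in KYSE180 siBRDT and 2, 2 and 3 in siCont. PRDM9, the methyltransferase that places recombination sites, had 13 and 3 reads in TE6 siBRDT, 7 and 3 in siTP63 and 1 and 1 in siCont. TEX15 had 7 and 10 reads in TE6 siBRDT and 4 and 4 in siCont, but 0 and 0 in siTP63. MAEL had 3 and 2 reads in KYSE180 siTP63 and 0 and 0 in siCont. In KYSE150 STAG3 had 2, 1 and 3 reads in BRDT-OE and 10, 5 and 9 in control, and the helicase gene TDRD9 went the other way, with 3, 4 and 2 against 1, 0 and 0. Of TDRD9's reads in TE6 siBRDT, all 13 were in replicate 1 and 0 in replicate 2, and PRDM9 was likewise highest in replicate 1, 1 of the libraries that stood apart. Fitted with no filter on level, limma gave adjusted p of 0.00165 to PIWIL4 and 0.0236 to TEX15 in TE6 siTP63. AKAP3 had 0.0237 and 0.0161 in KYSE180 siTP63 and siBRDT, and MAEL had 0.0473 in KYSE180 siTP63. PRDM9 had 0.0482 in TE6 siBRDT, and STAG3 and TDRD9 had 0.0313 and 0.0126 in BRDT-OE. These adjusted p-values rest on the few reads given. Without siBRDT replicate 1 they were 0.0103 for AKAP3 in KYSE180, 0.0423 for PRDM9 and 0.0311 for TEX15 (0.193 with it).

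E2F6, looked up after the promoter search as the known repressor of many of these genes, was at 171 and 184 in TE6 siCont and 112 and 104 in siBRDT, and so lower in both (-0.71 ± 0.18, adjusted p = 0.00741, and -0.76 without siBRDT replicate 1). It was at 0.08 in KYSE180 siBRDT, at -0.07 in BRDT-OE and at 0.02 and -0.05 under siTP63 in KYSE180 and TE6. Of the 5 members whose promoter held the box, SPO11 and PRDM9 were below the level for testing, and any part of E2F6 was not tested.

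Other lists of germ cell genes and of their somatic counterparts were counted for comparison, and their counts stand beside the shares of all genes tested. These were 15.8% down and 14.5% up in KYSE180 siBRDT, 18.1% and 15.6% in TE6 siBRDT, 16% and 10.5% in BRDT-OE, 25.7% and 23.6% in KYSE180 siTP63, 20.6% and 18.3% in TE6 siTP63 and 0% in KYSE150 siTP63. With siBRDT replicate 1 left out they were 15.8% and 14.3% in KYSE180 siBRDT and 19.5% and 16.0% in TE6 siBRDT. Of further meiosis genes, siBRDT raised 6 and lowered 0 of 22 tested in KYSE180, among them YBX2, a germ cell RNA-binding protein (1.22), and RAD51C, a recombinational repair gene of all cells (1.03). With siBRDT replicate 1 left out it raised 4 and lowered 0 of 21 there, YBX2 (1.16) and RAD51C (0.98) among them. In TE6 it raised 4 and lowered 4 of 23, with SYCE2 (1.57) and MND1 (1.53) rising and SGOL2 (-1.21) and BRCA2 (-0.86) falling, and the counts were 4 and 4 without siBRDT replicate 1. BRDT-OE raised 4 and lowered 2 of 20, with BRCA2 (0.86) and EXO1 (0.73) up and SYCE2 (-1.32) and CCNB1IP1 (-0.86) down. siTP63 lowered 12 of 22 in KYSE180 and 9 of 23 in TE6 and raised 0 in either, and 0 of 19 were called in KYSE150. Many genes of this list, such as BRCA2 and EXO1, also serve DNA repair in dividing somatic cells.

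Cancer-testis antigens are germ cell proteins known from tumours. siBRDT raised 3 and lowered 1 of 13 in KYSE180, with CABYR (0.95) and SPA17 (0.79) up and MAGEA11 (-0.53) down. It raised 3 and lowered 1 of 10 in TE6, with SPA17 (1.61) and GAGE1 (0.70) up and PRAME (-0.54) down. Without siBRDT replicate 1 of each line the 3 rises were again counted in both, but MAGEA11 (-0.49) and PRAME (-0.39) were not called and the falls were 0. BRDT-OE raised 1 of 9, MAGEB2 (0.57), and lowered 1, ZNF165 (-0.60). siTP63 lowered 7 and raised 1 of 15 in KYSE180 and lowered 3 and raised 1 of 10 in TE6. Members of the MAGE, GAGE and CTAG families have near-identical copies, so their reads may be shared or lost in counting.

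Proliferation-linked cancer-testis genes, a list of 6, had 1 fall in KYSE180 siBRDT (CEP55, -0.74) and 3 in TE6, CEP55 (-1.73) and ATAD2 (-1.26) being the largest. There were 0 calls in BRDT-OE, 4 falls in KYSE180 siTP63 and 5 in TE6 siTP63, and no list member rose. Of 20 somatic counterparts of the members, siBRDT lowered CCNA2 (-0.75) and raised HSPA1A (0.72) in KYSE180, and in TE6 lowered 7, STAG2 (-1.20) and CCNA2 (-1.20) most, and raised DAZAP1 (0.64). BRDT-OE raised 7, HSPA8 (1.86) and LDHA (0.60) most, and lowered MOV10 (-0.57). siTP63 lowered 8 and raised 1 in KYSE180 and lowered 10 and raised 0 in TE6. The siBRDT counts of these lists were the same without siBRDT replicate 1.

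Of 25 repressors of germline genes, siBRDT raised 2 in KYSE180, L3MBTL2 (0.86) and EHMT2 (0.61), and lowered KDM5B (-0.52). In TE6 it lowered 7, the DNA methyltransferase DNMT3B (-0.78) and ATF7IP (-0.77) most, and raised L3MBTL2 (0.71). Without siBRDT replicate 1, KDM5B was not called in KYSE180 (-0.48), and the TE6 counts were again 7 and 1, with DNMT3B at -0.54 and ATF7IP at -1.03. BRDT-OE raised 6, UHRF1 (1.01) and L3MBTL2 (0.78) most, and lowered DNMT3A (-0.59). siTP63 lowered 5 and raised 3 in KYSE180 and lowered 9 and raised 3 in TE6. In KYSE150 siTP63 0 genes of any of these 5 lists were called by limma.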

How the data were processed

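RNA was sequenced from 26 libraries, made per the methods with the TruSeq RNA v2 kit, which does not mark strand. Per the submitters' processing notes, the authors aligned the reads by STAR (2.6.0) to hg38, counted them with HTSeq (0.11.2) and normalised the counts with DESeq2 (1.24.0). The annotation and the strand setting were not given in the sources used here. The deposited values are a normalised signal, gene counts divided by a size factor, computed by the authors for each table. 100% of values were whole multiples of 1 read (tolerance 0.01 read), so reads were recovered from the values, and libraries held 7582089 to 19372441 reads. Which siRNA was used in each library was not given in these sources, so no siRNA sequence is printed.

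The main test was limma (3.58.1, R 4.3.3; lmFit, eBayes with trend) on log2(value + 1), a scale on which fold changes of low genes are understated. Genes needed a mean of 10 over the libraries fitted. Adjusted p-values are Benjamini-Hochberg values over all genes of a fit, calls needed an adjusted p under 0.05 and a log2 fold change of 0.5, and tests are two-sided. The 3 TE6 groups shared 1 fit. Contrasts between lines or treatments had no fold limit. edgeR (4.0.16) on recovered reads called 4134, 4502, 3415, 6985, 5303 and 0 genes in the 6 comparisons, in the order KYSE180 siBRDT, TE6 siBRDT, BRDT-OE, then siTP63 in KYSE180, TE6 and KYSE150, beside 4115, 4493, 3386, 6869, 5184 and 0 with limma. DESeq2 (1.42.0) on the recovered reads was a further alternative, as were another pseudocount (0.1), no filter, a mean of 50, upper-quartile rescaling, a replicate block and each library left out. Upper-quartile rescaling used the nonzero values of each library. Counts of the other lists and fits with no filter, both without siBRDT replicate 1, were added after the data were seen. The scripts (also Python 3.11.15, pandas 2.3.3, matplotlib 3.10.9) were tested on simulated data.

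The members and all gene lists were chosen with earlier results of these data known. All 40 members were accounted for. Members called in at least 1 comparison, and those with the largest or smallest mean, were given with values per library, and others by ranges, counts or reads. From each other list, up to 2 rises and 2 falls with a mean of at least 20 were named per BRDT comparison. These lists held 46 further meiosis genes, 74 cancer-testis antigens, 6 proliferation-linked genes, 20 somatic counterparts and 26 repressors, of which 5, 2, 0, 0 and 1 symbols were not found. Gene positions and lengths are from GENCODE v44. Promoters of 9 members, HORMAD1 among them, were not used here.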

Additional observations from a re-analysis of the deposited data

Results flagged for a closer look

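Changes of 7 member and treatment pairs differed between KYSE180 and TE6 in limma contrasts of the fold changes (KYSE180 minus TE6). Under siBRDT these were REC8 (-2.43, adjusted p = 2.89e-06), ODF2 (0.59, adjusted p = 0.00251) and CCNA1 (0.65, adjusted p = 0.038). Under siTP63 they were SYCP2 (1.73, adjusted p = 4.61e-04), TDRD5 (1.86, adjusted p = 0.0103), HSPA2 (0.87, adjusted p = 0.00238) and REC8 (-0.77, adjusted p = 0.0142). Both REC8 contrasts use the same TE6 siCont libraries, and the one under siTP63 was lost with upper-quartile rescaling (adjusted p = 0.156), without KYSE180 siTP63 replicate 2 (0.0781) and without TE6 siTP63 replicate 1 (0.0546). TDRD5 reached the level for testing in KYSE180 through its siTP63 libraries only. No outlier test within a group was made, since groups held 2 or 3 libraries, and the 2 libraries that stood apart by genes detected are described with the results above.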

How the results depend on the processing

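Over 70 results and 901 alternatives, 815 kept their direction and call, 54 lost a call, 16 gained one and 16 changed sign. With a mean of at least 50, members called in KYSE180 siBRDT became 1 down and 0 up, those in KYSE180 siTP63 became 1 down and 1 up, and members that differed became 2 for siTP63 between lines and 2 within KYSE180, since fewer genes were then tested. Upper-quartile rescaling left 0 down in TE6 siBRDT and 1 member that differed for siBRDT between lines. With no filter, PRDM9 made 2 up in TE6 siBRDT, STAG3 gave 1 down and TDRD9 1 up in BRDT-OE, AKAP3 and MAEL made 5 up in KYSE180 siTP63, and PIWIL4 made 2 up in TE6 siTP63. At 5 reads or more, 16, 18, 10, 16 and 7 members were detected in the KYSE180 siBRDT, TE6, BRDT-OE, KYSE180 siTP63 and KYSE150 siTP63 tables.

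Leaving out 1 library gave 1 to 3 down in TE6 siBRDT (1 without siCont replicate 2), 2 to 5 up in KYSE180 siTP63 (2 without siTP63 replicate 2, 5 without siCont replicate 1, which added SMC1B and TEX14) and 3 to 5 members that differed within TE6 (3 without siCont replicate 1 or 2, siBRDT replicate 2 or siTP63 replicate 2). It gave 28 to 31 detected members in the KYSE180 siBRDT table, 26 to 36 in TE6 and 17 to 18 in the KYSE150 siTP63 table. Where this left 1 library in a group, that library was assumed to vary like those of the other groups.

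The sign changes were all of members not called. In BRDT-OE, HSPA1L was at -0.13 with edgeR and -0.0484 with DESeq2, HSPA2 at -0.0629 with upper-quartile rescaling and -0.0034 with edgeR, and ODF2 at -0.021 with upper-quartile rescaling. Leaving out 1 library moved CCNA1 from -0.17 to 0.0364 and REC8 from -0.28 to 0.0232 in KYSE180 siBRDT, HSPA1L from -0.49 to 0.54 and HSPA2 from -0.0281 to 0.0936 in BRDT-OE, STAG3 from -0.20 to 0.38 in KYSE180 siTP63 and HSPA1L from -0.63 to 0.20 in TE6 siTP63. The causes were not tested.

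Replicate numbers did not pair the libraries: same-numbered libraries had correlated deviations of 0.1532, 0.0047 and 0.1777 in the KYSE180 siBRDT table. With a replicate block, KYSE180 siBRDT had 3 members down and 3 up (MEIOB added), the siBRDT difference between lines 2 and that within TE6 4, and calls over all genes were 4175, 4442, 3433, 6799, 5177 and 137. The correlation was -0.7025 in the KYSE150 siTP63 table. A crossed pairing there, added after the data were seen, called 3400 genes and 1 member down (HSPA2) and 1 up (REC8). The members with 0 to 5 reads in every library were too shallow for a statement on change.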

Other observations

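Control libraries of KYSE180 differed between the siBRDT and siTP63 experiments in some of the members, as values with no test, since the tables were normalised separately. SYCP2 was at 45.3 to 61.8 in the first and 18.9 to 22.6 in the second, TDRD5 at 17.7 to 23.3 and 6.29 to 7.19, and MOV10L1, a piRNA pathway helicase, at 3.68 to 8.83 and 17.5 to 20.4. CCNA1 was at 26.5 to 35.3 and 46.2 to 50.3. REC8 (73.5 to 108 and 87.3 to 89.7) and SMC1B (0.981 to 9.07 and 6.16 to 7.86) overlapped. For SYCP2 the siBRDT libraries of the first experiment (24.3 to 34.8) thus lay above the siCont libraries of the second.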
